A study of Homo sapiens with 6 samples.

Results

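The 33 genes described here encode enzymes and proteins of the NRF2 antioxidant programme and of the pentose phosphate pathway. They were picked by gene name from a table of 58825 rows, and all 33 were found there. RNA was measured in PC9, a human lung adenocarcinoma line driven by mutant EGFR. Cells of 3 libraries, called A, overexpressed FOXM1 with the A allele of the variant rs3742076, and cells of 3 libraries, called G, overexpressed it with the G allele. All 6 libraries came from cells given gefitinib, an EGFR kinase inhibitor, at 100 nM for 24 h, so the drug and the overexpression are shared by both groups. The labels give neither the vector nor its promoter, and they do not say whether a group was 1 clone or a pool. No library without the drug or without FOXM1 overexpression was analysed here.

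NRF2, encoded by NFE2L2, is a transcription factor that is held low by KEAP1, an adaptor that delivers it to a ubiquitin ligase. When electrophiles or oxidants modify KEAP1, NRF2 accumulates, pairs with a small MAF protein and binds antioxidant response elements near its target genes, where the repressor BACH1 competes with it. The targets make and recycle glutathione and thioredoxin, reduce quinones and carbonyls, store iron, and supply NADPH, in part through the pentose phosphate pathway. In lung adenocarcinoma the programme is often raised by mutations of KEAP1 or NFE2L2.

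The core of the antioxidant response element is written TGACNNNGC, and TGACTCAGC is the form of it that also contains the recognition sequence of AP-1 factors. Both were searched on both strands in RefSeq promoters (GRCh38.p14, from 250 bases before to 50 bases after a start), in which 25 of the 33 genes had an entry. TGACNNNGC was found in 4687 of 35116 promoters of all genes (13.3%) and in 11 of 37 promoters of the members (29.7%), from 10 genes. TGACTCAGC was found in 197 of all promoters (0.561%) and in 2 of the 37 (5.41%). The promoters of TALDO1, AKR1C3 and FTL held neither form in this window. The sites below show how the variable bases differ among members described in the following paragraphs. Each is printed 5′ to 3′ on the strand that reads as the core, which is in capitals.
GSTP1, chr11:67583736-67583764, plus strand: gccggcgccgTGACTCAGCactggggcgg
ME1, chr6:83431170-83431198, minus strand: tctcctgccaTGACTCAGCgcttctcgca
GCLM, chr1:93909446-93909474, plus strand: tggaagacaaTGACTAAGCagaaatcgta
KEAP1, chr19:10502784-10502812, plus strand: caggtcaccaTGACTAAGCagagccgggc
GPX2, chr14:64942849-64942877, plus strand: atccccaggaTGACTTAGCaaaaacaggt
TXNRD1, upstream start, chr12:104215670-104215698, plus strand: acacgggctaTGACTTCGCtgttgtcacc
TXNRD1, downstream start, chr12:104286920-104286948, minus strand: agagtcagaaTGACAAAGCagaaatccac
These are matches of letters, and no binding was measured.

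No gene of the set passed the test between G and A libraries. The changes were small, and most of them pointed down in G on the deposited scale. Changes are given as log2(FPKM + 1) in G minus A, where FPKM is fragments per kilobase of transcript, scaled to the fragments of the library. All 33 genes reached 1 FPKM in at least 3 libraries and were tested with limma among 12787 genes, and a gene was called at a Benjamini-Hochberg adjusted p below 0.05. The limma test called 0 of the 33, against 0.109% of all tested genes called in either direction and 0.0782% called lower, and the smallest adjusted p was 0.127, for TALDO1. At an unadjusted p under 0.05, 5 members had a lower level in G, namely TALDO1, AKR1C3, MGST1, GPX2 and FTL, and 0 a higher one. The same cutoff took in 6.82% of all tested genes as lower and 10.5% as higher.

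The log2 change was negative for 29 of the 33 genes on the deposited scale, but for 17 when each library was scaled to an equal sum of FPKM and for 19 after quantile normalization. Of all tested genes, 44.9% had a negative change on the deposited scale. The median over the members was -0.12, and over all tested genes it was 0.02. With equal sums the medians were -0.013 and 0.11, so the members' median relative to all genes was -0.14 on the deposited scale and -0.12 with equal sums. After quantile normalization the relative median was -0.031. These relative medians take no account of level, and the members are mostly abundant. At 100 FPKM or more the deposited scale gave a median of -0.11 for all tested genes and -0.14 for the 15 members there. Between 10 and 50 FPKM it gave -0.018 for all tested genes and -0.17 for the 8 members. Between 1 and 10 FPKM the median of all tested genes was 0.045. On the deposited scale with all 6 libraries, the 95% intervals of all 33 changes lay between -0.96 and 0.38. They thus lay inside a 2-fold change in either direction. The interval of TXNRD1 reached beyond that when G replicate 1, 2 or 3 was left out, with lower limits of -1.10, -1.11 and -1.11.

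**Figure D1:**
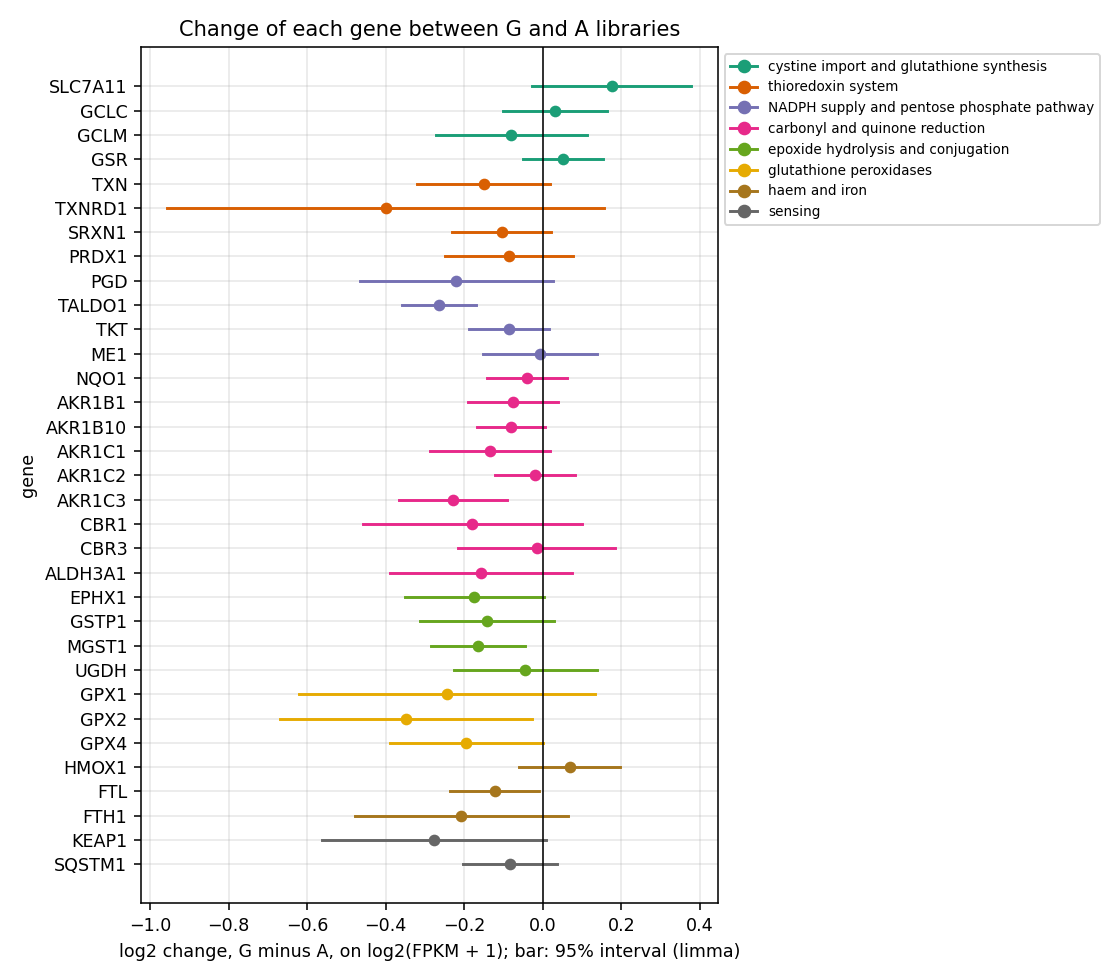
Log2 change of each of the 33 genes, G minus A, on the log2(FPKM + 1) scale (horizontal axis), with its 95% interval from limma (bars) and coloured by role. Of the 33 points 29 lie left of 0, and the intervals of 5 genes lie wholly left of 0.

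The 3 G libraries lay below all 3 A libraries for 9 members (TALDO1, AKR1C3, MGST1, GPX2, FTL, EPHX1, AKR1B10, TKT and SRXN1), where 9.57% of all tested genes did so. They lay above for SLC7A11 and GSR, where 15.4% of all tested genes did so. With equal sums the count was 3 below (TALDO1, AKR1C3 and MGST1, against 3.31% of all genes) and 7 above (SLC7A11, HMOX1, GSR, NQO1, GCLC, AKR1C2 and ME1, against 29.5%). By the authors' deposited table, 0 members had a q-value under 0.05, against 0.266% of the tested genes, and TXNRD1 (p = 0.0141) and TALDO1 (p = 0.0388) had a p under 0.05 with a lower level in G, as did 2.28% of the tested genes.

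The summed FPKM of all genes was itself larger in A libraries (270219 to 277596) than in G libraries (253706 to 255269), and mitochondrially encoded genes made up 22.1% ± 0.070 and 18.7% ± 0.98 of it (SD, n = 3). The members' sum was 10655, 11277 and 10857 FPKM in A and 10125, 10048 and 9645 FPKM in G. As a share of all FPKM that was 3.94%, 4.06% and 3.94% in A and 3.97%, 3.96% and 3.78% in G, and these shares overlap. As a share of FPKM outside mitochondrial genes it was 5.07%, 5.21% and 5.05% in A and 4.95%, 4.81% and 4.64% in G, where the groups do not overlap. The part of the scale in the single changes was not tested beyond these settings. Fewer cells that express a gene and less of its RNA per cell cannot be told apart in these bulk libraries. A search within a preset window put the libraries at an estimated 19760000 to 23340000 read pairs, and depths outside the window could not be found. The libraries held 12451 to 12858 genes at 1 FPKM or more. Epithelial markers summed to 2613 to 3341 FPKM, while the lung lineage markers NKX2-1, SFTPB, SFTPC and NAPSA summed to 0.327 to 0.912 FPKM, so defining lung markers were near 0. Markers of other cell types were low too, with 1.63 to 2.26 FPKM for fibroblasts (DCN and LUM without an estimate in all 6 libraries), 0.866 to 1.28 FPKM for leukocytes and 0.200 to 0.663 FPKM for endothelium. FOXM1 itself was at 25.5, 10.5 and 10.1 FPKM in A and 14.6, 14.3 and 13.96 FPKM in G, so A replicate 1 stood apart and the labels' overexpression cannot be checked without a control.

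The set spans a wide range of levels. The median level was 90.2 FPKM over all libraries, 15 members were at 100 FPKM or more and 3 (GCLC, CBR3 and SLC7A11) were below 10 FPKM. The ferritin chains FTL and FTH1 alone held 37.3% and 19.5% of the members' summed FPKM, and AKR1B10, PRDX1, GSTP1 and AKR1B1 held 7.24%, 5.36%, 5.15% and 5.07%. Without ferritin the members summed to 4690 ± 119 FPKM in A and 4306 ± 28.9 FPKM in G (SD, n = 3). The median coefficient of variation was 3.78% among A libraries and 5.38% among G libraries.

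**Figure D2:**
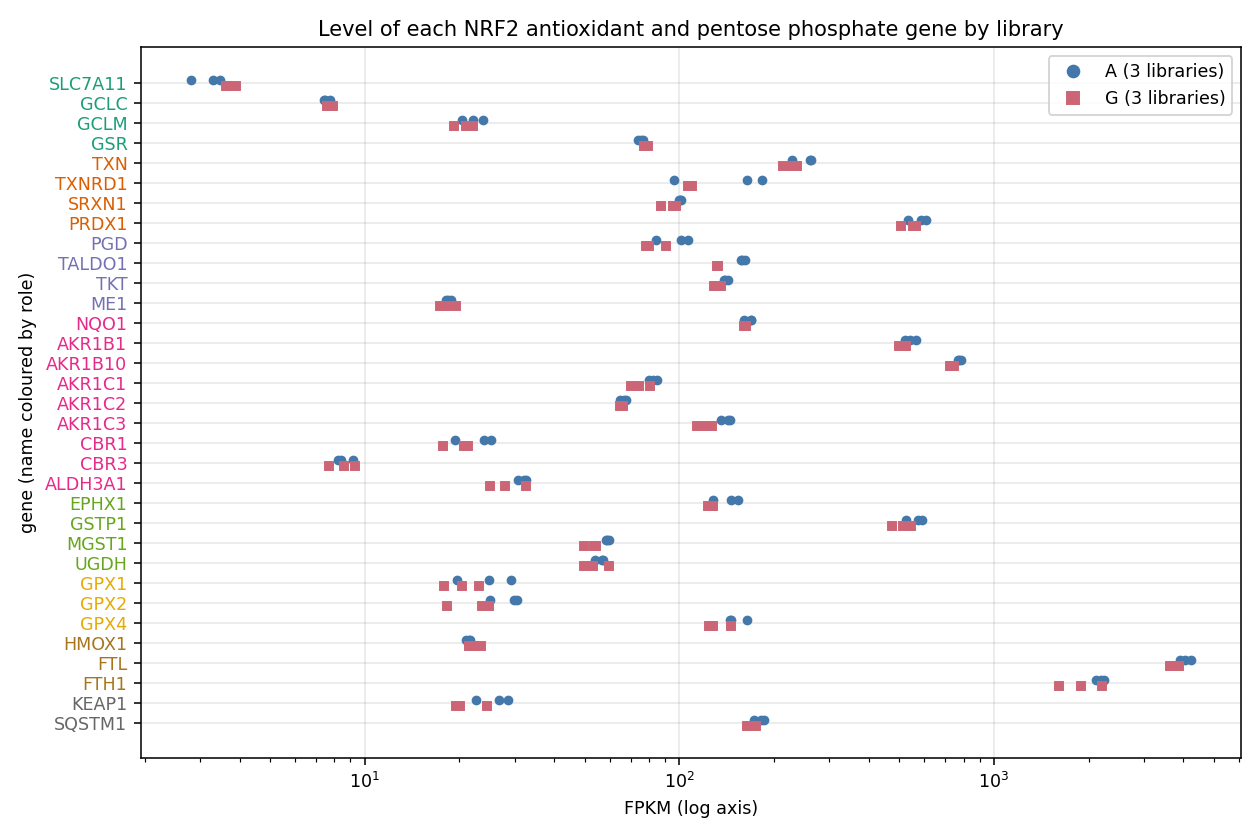
FPKM of each of the 33 genes on a log axis, with A libraries as circles and G libraries as squares (3 each) and gene names coloured by role. Levels run from SLC7A11, at 2.81 to 3.91 FPKM, to FTL, at 3636 to 4230.4 FPKM, and TXNRD1 runs from 96.1 to 183 FPKM, GPX2 from 18.2 to 30.5 FPKM and GPX1 from 17.8 to 29.1 FPKM.

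Enzymes of NADPH supply and of the pentose phosphate pathway included the gene with the smallest p. TALDO1 (ENSG00000177156, GRCh38 chromosome 11, 747415 to 765012, plus strand) encodes transaldolase of the non-oxidative branch. It was at 157, 162 and 159 FPKM in A and 132, 132 and 133 FPKM in G. The G libraries lay closely together and below every A library, under the deposited scale and under equal sums. The means were 159 ± 2.69 and 132 ± 0.50 FPKM (SD, n = 3), with a limma log2 change of -0.26 ± 0.039 (SE), a 95% interval of -0.36 to -0.17, an unadjusted p of 0.000386 and an adjusted p of 0.127. It ranked 38 by p among all tested genes. With equal sums the log2 change was -0.16 (limma adjusted p = 0.0953).

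TKT, the transketolase that works beside transaldolase, was at 139, 143 and 138 FPKM in A and 129, 136 and 130.5 FPKM in G, with no overlap and a log2 change of -0.087 (limma adjusted p = 0.35). PGD, which forms NADPH in the oxidative branch, was at 101, 106 and 84.5 FPKM in A and 90.6, 80.2 and 78.5 FPKM in G. A replicate 3 of PGD lay among the G libraries, and the log2 change was -0.22 (limma adjusted p = 0.326). ME1, the cytosolic malic enzyme, another source of NADPH, was at 18.4 ± 0.302 and 18.4 ± 1.12 FPKM (SD, n = 3), a log2 change of -0.0064 ± 0.06 (SE). All 4 genes of this role had a negative change on the deposited scale, while TKT and ME1 turned positive with equal sums.

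The 9 carbonyl and quinone reductases ranged from CBR3 at a mean of 8.56 FPKM to AKR1B10 at 756 FPKM. NQO1, the quinone reductase most used as a readout of NRF2, was at 159.9, 169 and 169 FPKM in A and 162, 161 and 159.9 FPKM in G. The groups overlapped, with a log2 change of -0.041 (95% interval -0.14 to 0.062, limma adjusted p = 0.645). AKR1B10, a reductase of retinal and other aldehydes, was at 784, 771 and 776 FPKM in A and 748, 727 and 729.9 FPKM in G. Its groups did not overlap, but the difference was a few percent, with a log2 change of -0.08 (limma adjusted p = 0.316), which turned to 0.18 after quantile normalization and to 0.028 with equal sums. AKR1B1, the aldose reductase, was at 521, 564 and 542 FPKM in A and 498, 522 and 525 FPKM in G, with overlap and a log2 change of -0.075.

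The 3 AKR1C genes encode closely related hydroxysteroid and ketone reductases on chromosome 10. AKR1C3 (ENSG00000196139, 5035354 to 5107686, plus strand), which also reduces prostaglandins, was at 135, 145 and 143 FPKM in A and 127, 114 and 119.8 FPKM in G. Every G library lay below every A library, with a log2 change of -0.23 ± 0.057 (SE), a 95% interval of -0.37 to -0.09, an unadjusted p of 0.00651 and a limma adjusted p of 0.185. The change of AKR1C3 was -0.12 with equal sums (limma unadjusted p = 0.0595) and -0.13 after quantile normalization (0.0731). AKR1C1 was at 80.3, 82.2 and 84.7 FPKM in A and 80.9, 70.1 and 74.3 FPKM in G, and G replicate 1 lay among the A libraries (log2 change -0.13, limma adjusted p = 0.337). AKR1C2 was at 64.9, 66.8 and 67.8 FPKM in A and 65.0, 65.5 and 66.3 FPKM in G, nearly the same in both (log2 change -0.019, 95% interval -0.12 to 0.083). The most abundant transcripts of AKR1C1 and AKR1C2 shared 12.6% and 13.5% of their 150-base windows with another gene, mostly each other, and that of AKR1C3 shared 1.33%, so the split of reads among the first pair is uncertain. The 3 genes together held 280.4, 294 and 295 FPKM in A and 273, 249 and 260.4 FPKM in G, a log2 change of -0.15 ± 0.050 (SE, limma adjusted p = 0.226).

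Among the remaining reductases of this group, CBR1, a cytosolic carbonyl reductase, was at 22.8 ± 3.03 and 19.9 ± 1.89 FPKM (SD, n = 3; log2 change -0.18). Its relative CBR3 was at 8.60 ± 0.505 and 8.51 ± 0.803 FPKM (log2 change -0.015). ALDH3A1, which oxidises aldehydes, was at 31.8 ± 1.04 and 28.5 ± 3.75 FPKM (log2 change -0.16). None of the 3 separated the groups, and their limma adjusted p ranged from 0.441 to 0.941. All 9 genes of the role had a negative change on the deposited scale, with a median of -0.080, but with equal sums NQO1, AKR1B1, AKR1B10, AKR1C2 and CBR3 were positive.

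The epoxide hydrolase and conjugation genes included MGST1 (ENSG00000008394, chromosome 12, 16347142 to 16609259, plus strand), a membrane-bound glutathione transferase with peroxidase activity. It was at 58.6, 59.6 and 58.9 FPKM in A and 54.2, 49.9 and 53.6 FPKM in G. The A libraries lay close together and above every G library, with coefficients of variation of 0.893% in A and 4.46% in G. The log2 change was -0.17 ± 0.05 (SE), with a 95% interval of -0.29 to -0.045, an unadjusted p of 0.0149 and a limma adjusted p of 0.205. With equal sums the change was -0.058 (limma unadjusted p = 0.275). GSTP1, the main soluble glutathione transferase of many epithelial tumours, was at 526, 575 and 591 FPKM in A and 473, 545 and 516 FPKM in G. Its groups overlapped (log2 change -0.14, limma adjusted p = 0.355). EPHX1, the microsomal epoxide hydrolase, was at 142 ± 13.2 and 126 ± 2.22 FPKM (SD, n = 3), with no overlap and a log2 change of -0.17 (limma adjusted p = 0.292). UGDH, which makes UDP-glucuronate, was at 55.8 ± 1.78 and 54.3 ± 5.12 FPKM (log2 change -0.044).

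All 3 glutathione peroxidases had a negative change, and theirs was the role with the lowest median, at -0.24. GPX2 (ENSG00000176153, chromosome 14, 64939152 to 64942905, minus strand), the epithelial form, was at 25.0, 29.8 and 30.5 FPKM in A and 23.6, 24.8 and 18.2 FPKM in G. The nearest libraries of the groups were A replicate 1 and G replicate 2, which differed by less than the spread within either group. The log2 change was -0.35 ± 0.13 (SE), with a 95% interval of -0.67 to -0.026, an unadjusted p of 0.038 and a limma adjusted p of 0.264. The change of GPX2 was -0.22 without G replicate 3 (limma unadjusted p = 0.0846) and -0.24 with equal sums (0.107), and the unadjusted p was 0.064 with the replicate number as a block and 0.103 and 0.109 when A replicates 2 and 3 were left out in turn. GPX4, which reduces lipid hydroperoxides and restrains ferroptosis, was at 152 ± 10.4 and 132 ± 11.7 FPKM (SD, n = 3; log2 change -0.19, limma adjusted p = 0.29). GPX1, the ubiquitous form, was at 24.5 ± 4.74 and 20.4 ± 2.58 FPKM (log2 change -0.24, limma adjusted p = 0.457), and the groups of both overlapped.

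Of the haem and iron genes, the ferritin light chain FTL (ENSG00000087086, chromosome 19, 48965309 to 48966879, plus strand) was the most abundant member. It was at 3898, 4230.4 and 4058 FPKM in A and 3636, 3858 and 3702 FPKM in G. The groups did not overlap, though A replicate 1 and G replicate 2 lay close together. The log2 change was -0.12 ± 0.047 (SE), with an unadjusted p of 0.0388 and a limma adjusted p of 0.267, and it turned to 0.18 after quantile normalization. With equal sums the change was -0.013 (limma unadjusted p = 0.752), without a filter on low values the unadjusted p was 0.361, and without A replicate 2, A replicate 3, G replicate 1 or G replicate 3 it was 0.0882 to 0.121. The heavy chain FTH1, which oxidises iron for storage, was at 2184, 2235 and 2114 FPKM in A and 2205, 1894 and 1604 FPKM in G. G replicate 3 was the lowest and G replicate 1 lay among the A libraries, with a log2 change of -0.21 (limma adjusted p = 0.391) that turned to 0.10 after quantile normalization. HMOX1, the inducible haem oxygenase, was at 21.5, 21.0 and 21.6 FPKM in A and 21.5, 23.5 and 22.4 FPKM in G, with overlap. The log2 change of HMOX1 was 0.069 (95% interval -0.06 to 0.20, limma adjusted p = 0.533), and 0.17 with equal sums (limma adjusted p = 0.138).

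The sensor KEAP1 was at 26.8, 28.6 and 22.6 FPKM in A and 19.4, 24.4 and 20.1 FPKM in G. G replicate 2 lay above A replicate 3, and the log2 change was -0.28 ± 0.12 (SE, limma adjusted p = 0.3). SQSTM1, or p62, an autophagy receptor that sequesters KEAP1, was at 180.0 ± 6.80 and 169.7 ± 5.71 FPKM (SD, n = 3; log2 change -0.084, limma adjusted p = 0.423).

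In the thioredoxin system the log2 change furthest from 0 on the deposited scale was that of TXNRD1 (ENSG00000198431, chromosome 12, 104215779 to 104350307, plus strand), the cytosolic thioredoxin reductase. It was at 183, 164 and 96.1 FPKM in A and 107, 107 and 109.5 FPKM in G. The difference lay in A replicates 1 and 2, while A replicate 3 was below all 3 G libraries, which lay close together. The log2 change was -0.40 ± 0.23 (SE), with a 95% interval of -0.96 to 0.16 and a limma adjusted p of 0.416. Without A replicate 3 the log2 change was -0.68 (limma adjusted p = 0.0964), and without A replicates 1 and 2 in turn it was -0.22 and -0.30. The gene overlaps RPL18AP3, at a mean of 159.7 FPKM, and EID3 on the same strand, and reads can be split among them.

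TXN, thioredoxin itself, was at 250.4 ± 19.0 and 225 ± 10.9 FPKM (SD, n = 3; log2 change -0.15, limma adjusted p = 0.331). PRDX1, a peroxiredoxin that thioredoxin regenerates, was at 535, 587 and 608 FPKM in A and 555, 508 and 565 FPKM in G, with overlap and a log2 change of -0.087 (limma adjusted p = 0.534). SRXN1, the sulfiredoxin that repairs overoxidised peroxiredoxins, was at 100.4 ± 0.699 and 93.4 ± 5.02 FPKM with no overlap (log2 change -0.10, limma adjusted p = 0.36). Of the windows of its transcript, 84.2% also occur in the overlapping gene AL121758.1. That gene was at a mean of 0.0082 FPKM, so little of the shared signal was assigned to it. With equal sums PRDX1 and SRXN1 turned to 0.021 and 0.0032.

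The genes of cystine import and glutathione synthesis and recycling were the only role with a positive median on the deposited scale, at 0.041. SLC7A11, the cystine subunit of the xCT antiporter and the least abundant member, was at 3.48, 2.81 and 3.30 FPKM in A and 3.91, 3.66 and 3.62 FPKM in G. Every G library lay above every A library, with a log2 change of 0.18 ± 0.084 (SE), a 95% interval of -0.027 to 0.38 and a limma adjusted p of 0.34. With equal sums the change was 0.26 (limma adjusted p = 0.149). GSR, the glutathione reductase, was at 75.4 ± 1.49 and 78.2 ± 1.13 FPKM (SD, n = 3), again with no overlap (log2 change 0.051, limma adjusted p = 0.554). Its change was 0.16 with equal sums (limma adjusted p = 0.104), where the median of all tested genes was 0.11. After quantile normalization it was 0.12 (limma adjusted p = 0.271).

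The enzyme that SLC7A11 feeds, glutamate-cysteine ligase, was nearly level between the groups. Its catalytic subunit GCLC was at 7.76, 7.48 and 7.44 FPKM in A and 7.59, 7.68 and 7.96 FPKM in G, a log2 change of 0.03 with a 95% interval of -0.10 to 0.16. Its modifier subunit GCLM was at 23.7, 20.3 and 22.0 FPKM in A and 22.1, 19.2 and 20.9 FPKM in G, a log2 change of -0.08 with a 95% interval of -0.27 to 0.11. Their limma adjusted p was 0.8 and 0.628. GCLC overlaps AL033397, at a mean of 6.25 FPKM, on the same strand.

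The direction of the change went with the level across all tested genes, and the members are mostly abundant. Of the 298 genes at 100 FPKM or more, 79.5% had a negative log2 change on the deposited scale (median -0.11), and all 15 members of that class were negative there (median -0.14), though 6 of the 15 turned with equal sums. Between 50 and 100 FPKM the share was 65.5% of 380 genes (median -0.049), and 6 of 7 members were negative (median -0.10). Between 10 and 50 FPKM it was 54.2% of 3187 genes (median -0.018) against 7 of 8 members (median -0.17), which were CBR1, GCLM, ME1, GPX1, GPX2, KEAP1 and ALDH3A1, with HMOX1 as the positive one. Between 1 and 10 FPKM it was 39.7% of 8724 genes (median 0.045), and 1 of 3 members, CBR3, was negative. The part of the level in the members' changes was not tested further.

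**Figure D3:**
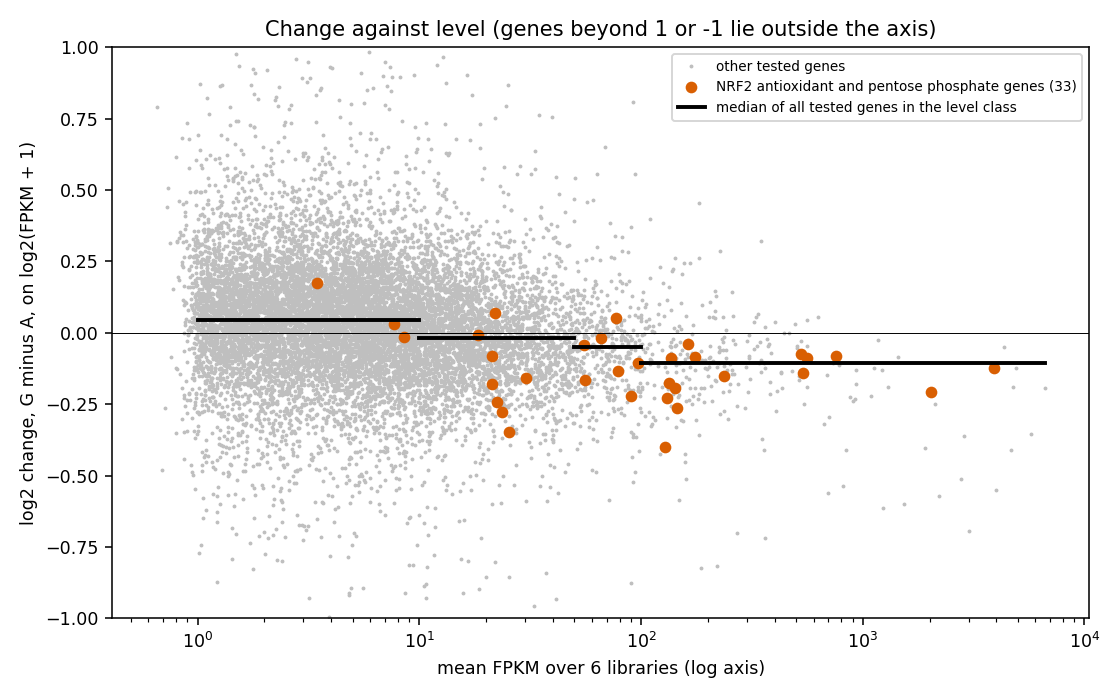
Log2 change, G minus A, on the log2(FPKM + 1) scale (vertical axis) against mean FPKM on a log axis for the tested genes, with the 33 members in orange and the median of all tested genes in each level class as black bars. The bars step down from 0.045 between 1 and 10 FPKM to -0.11 at 100 FPKM or more, and the members at 100 FPKM or more all lie below 0.

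The 10 genes with a TGACNNNGC match all had a negative change on the deposited scale, with a median of -0.18, while GCLM and ME1 turned positive with equal sums. Of the 15 with a promoter entry and no match, 14 were negative, with a median of -0.10, and of the 8 with no entry 5 were negative, with a median of -0.048. With equal sums SRXN1, TKT, NQO1, AKR1B1, AKR1C2, UGDH and SQSTM1 of the former turned positive. So did PRDX1, AKR1B10 and CBR3 of the latter. On the deposited scale the ranges overlapped, from -0.40 to -0.0064 with a match and from -0.26 to 0.030 with an entry and no match. The genes with the TGACTCAGC form were GSTP1, at a log2 change of -0.14, and ME1, at -0.0064.

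At the level of transcripts, 286 transcripts of the members were in the deposited table and 146 were tested. The limma test called 0 of them, against 0.147% of 29990 tested transcripts, and 23 (15 lower and 8 higher in G) had an unadjusted p under 0.05, against 7.81% of all. By the authors' deposited table, 3 of them had a q-value under 0.05, namely MGST1 ENST00000396207 (q = 0.00821), TXNRD1 ENST00000354940 (q = 0.014) and TXNRD1 ENST00000526691 (q = 0.04), against 0.337% of all tested transcripts.

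An isoform of MGST1 separated the groups in all 6 libraries by its estimated level. Isoform values are estimates of how reads divide among transcripts, and the certainty of that division was not tested. ENST00000396207, a coding transcript of 4 exons at 16353417 to 16364409, was at 123.2, 119.5 and 109.7 FPKM in A and 10.4, 3.81 and 16.2 FPKM in G. It made up 22.8% to 25.7% of the gene value in A libraries and 0.933% to 3.70% in G libraries. Its log2 change was -3.59 ± 0.47 (SE), and the limma adjusted p was 0.107 and ranged from 0.0605 to 0.578 over the alternatives. Other MGST1 isoforms did not move alike in the 3 G libraries. ENST00000010404 made up 24.6% of the gene value in G replicate 1, 3.53% in G replicate 2 and 0% in the rest, and ENST00000624056 made up 12.2% and 12.3% in G replicates 2 and 3 and at most 2.11% in the other 4 libraries.

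Some TXNRD1 isoforms separated the groups and others did not. ENST00000526950 was at 309.9, 181 and 276 FPKM in A and 0.0001, 0.110 and 316 FPKM in G, where 0.0001 stands for no estimate. G replicate 3 thus resembled A replicate 3, where this transcript made up 79.3% and 79.2% of the gene value. ENST00000503506 was at 160.2, 183 and 15.9 FPKM in A and 46.1, 34.6 and 17.4 FPKM in G, and it was high in A replicates 1 and 2, those with the high gene value. ENST00000526691 was at 2.56, 1.76 and 8.80 FPKM in A and 72.0, 69.1 and 10.9 FPKM in G, all G libraries above all A libraries though G replicate 3 lay near A replicate 3, with a limma log2 change of 3.10 (adjusted p = 0.533). Without G replicate 3, ENST00000526950 was called lower (log2 change -7.89, limma adjusted p = 0.0169). In each of the 33 genes the transcript values, weighted by length and summed, stood in a constant ratio to the deposited gene value.

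**Figure D4:**
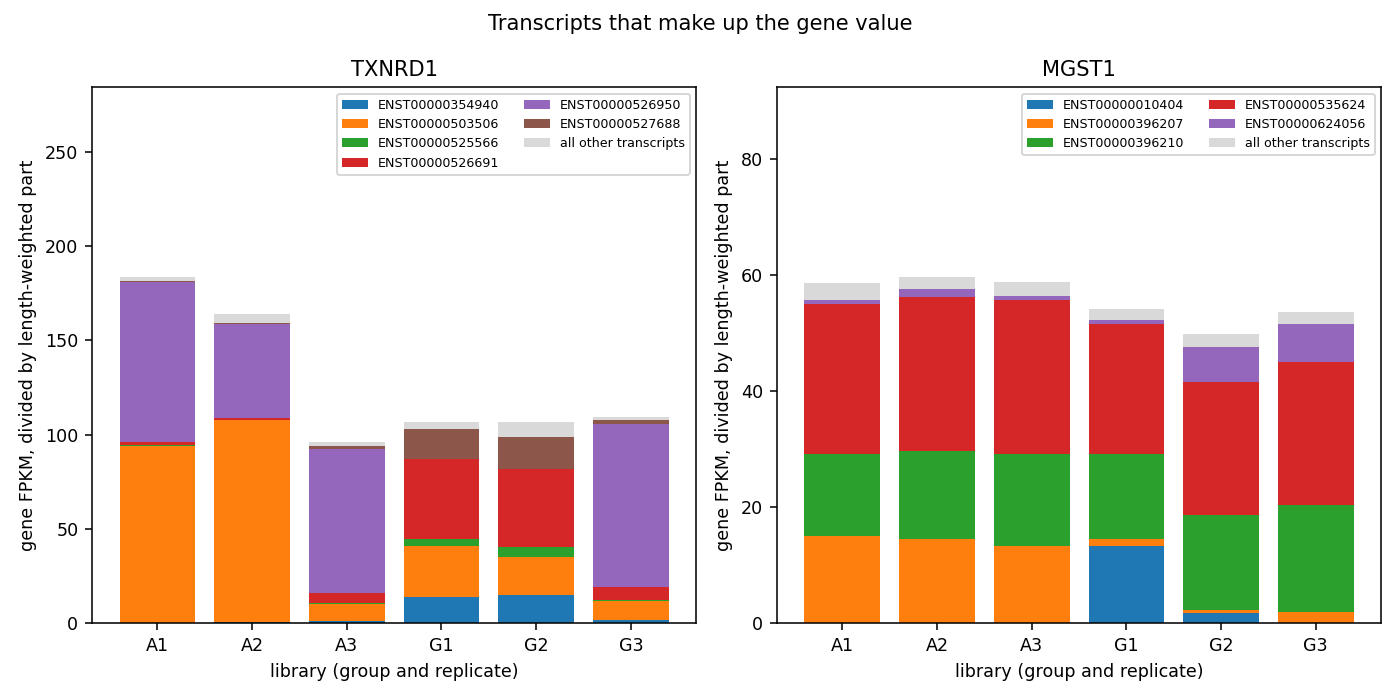
Gene FPKM of TXNRD1 (left) and MGST1 (right) in each of the 6 libraries, divided into the length-weighted part of each transcript. In MGST1 the orange part, ENST00000396207, is 22.8% to 25.7% in A libraries and at most 3.70% in G libraries, while in TXNRD1 the purple part, ENST00000526950, is large in A libraries and in G replicate 3.

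Of 13 regulators of NRF2, all of which were tested, 1 was called by limma, against 0.109% of all tested genes. MAFF, a small MAF partner of NRF2 and BACH1, was at 5.56, 5.86 and 6.28 FPKM in A and 1.56, 1.45 and 1.97 FPKM in G, and it fell by 1.38 on the log2 scale (limma adjusted p = 0.0144). The limma call was lost with the replicate number as a block and without a filter on low values. Leaving out A replicate 2, A replicate 3, G replicate 1 or G replicate 2 also lost it. By the authors' deposited table MAFF had a log2 ratio of -1.83 and a q-value of 3.05e-13. Its relatives differed less. MAFG was at 6.68, 7.59 and 7.00 FPKM in A and 6.14, 5.67 and 7.24 FPKM in G (log2 change -0.14, adjusted p = 0.48), and MAFK was at 18.8, 19.3 and 6.65 FPKM in A and 17.3, 19.3 and 18.8 FPKM in G, where A replicate 3 alone was low (log2 change 0.42, adjusted p = 0.591). BACH1 was at 6.52, 6.35 and 6.11 FPKM in A and 7.61, 7.40 and 8.19 FPKM in G, all G libraries above all A libraries, with a log2 change of 0.25 and a limma adjusted p of 0.184. NFE2L2 mRNA was at 23.1, 21.8 and 21.3 FPKM in A and 22.0, 20.7 and 21.3 FPKM in G, with overlap, a log2 change of -0.047 and a 95% interval of -0.18 to 0.085. NRF2 is controlled mainly through the stability of its protein, which was not measured here. Of the 13 regulators 7 had a negative change, against 44.9% of all tested genes, and their median was -0.0034.

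Of 19 further genes of the pentose phosphate pathway and NADPH supply, 16 were tested and 0 were called, against 0.109% of all tested genes. Of the 16, 6 had a negative change, against 44.9% of all tested genes, and their median was 0.023. PGLS was not analysed here. IDH2, a mitochondrial source of NADPH, was at 57.2, 57.7 and 58.0 FPKM in A and 62.7, 65.8 and 64.7 FPKM in G, with every G library above every A library (log2 change 0.16, limma adjusted p = 0.195).

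Of 67 other redox and detoxification genes, 58 were tested, 0 were called and 38 had a negative change, with a median of -0.059. Of all tested genes, 0.109% were called and 44.9% had a negative change. At an unadjusted limma p under 0.05, 7 of the 58 were lower and 1 was higher in G, against 6.82% and 10.5% of all tested genes. GSTK1, a glutathione transferase of mitochondria and peroxisomes, had the smallest p of those lower in G and was at 56.0, 55.0 and 54.8 FPKM in A and 47.3, 49.6 and 46.7 FPKM in G (log2 change -0.20, limma adjusted p = 0.172). MT1X, a metallothionein that binds zinc and copper, was the 1 higher and was at 31.5, 32.1 and 31.4 FPKM in A and 36.9, 36.8 and 36.9 FPKM in G (log2 change 0.21, limma adjusted p = 0.16).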

How the data were processed

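Poly(A) RNA of 6 PC9 libraries (3 A, 3 G) was sequenced, and the tools of the authors were cutadapt 1.9, HISAT2 2.0.4 and StringTie 1.3.4d, per the submitters' processing notes. The notes name a mouse build, but the tables carry human Ensembl identifiers. The position and strand of 258 of 284 member transcripts (90.8%) equalled those on GRCh38 in GENCODE release 29. The deposited tables hold FPKM for genes and transcripts, and per the file headers also the p-value, q-value, fold ratio and log2 ratio of a test that is not given in the sources used here. The strand setting is not given either. On the other strand, 12 members (AKR1C2, AKR1C3, CBR1, CBR3, EPHX1, FTH1, GPX2, MGST1, PRDX1, SQSTM1, TXNRD1 and UGDH) overlap a gene at or above a low preset mean FPKM. The reads of such a gene may be mixed with theirs. Overlaps with genes below that level were not listed. A value of 0.0001 stands for no estimate. FPKM are not counts: read-pair steps sought within a preset window made 28.9% to 30.9% of low values whole within 0.02 read pairs, so no count test was used and depths are estimates.

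Values were taken as log2(FPKM + 1), which understates changes of low genes, for genes at 1 FPKM or more in at least 3 of 6 libraries. The fit was limma 3.58.1 with an intensity trend (R 4.3.3), on 12787 genes and on 29990 transcripts, with Benjamini-Hochberg adjustment over all of them. It was tested on simulated data. Tables were handled with Python 3.11.15 and pandas 2.3.3. The members and gene lists were chosen with earlier results of these data known. Values in every library were given for members at an unadjusted p under 0.05, the 6 most abundant members, the AKR1C genes and 7 classical NRF2 genes, and for others where they helped. Outside the members, core regulators and the gene of smallest p in each direction of each list were named, except for an item that is not reported here. The labels do not say whether replicates were separate cultures, so p-values rest on a spread that may be technical. Across genes, libraries of a group correlated at 0.974 to 0.979 on the log2 scale, and none held identical values. Libraries of different groups correlated at 0.970 to 0.976, which overlaps the range within groups. The alternatives changed the pseudocount, filter, scaling, trend, weights, block and libraries.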

Additional observations from a re-analysis of the deposited data

How the results depend on the processing

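The limma test called 0 members under the deposited scale and under each of the alternatives run, where the smallest adjusted p was 0.0823, with library weights. Of 591 member values under an alternative, 558 kept their direction and 33, in 14 members, did not. The setting of equal sums without mitochondrial genes was chosen after seeing the data. The number of members lower at an unadjusted p under 0.05 was 5 as reported, 2 by the authors' deposited p-values, 1 with equal sums, 2 with equal sums without mitochondrial genes, 3 after quantile normalization, 10 with median-ratio factors, 10 with library weights, and 3 to 9 when 1 library was left out (9 without A replicate 1 or G replicate 2, 3 without A replicate 2 or G replicate 3). The number higher was 0 as reported, 3 with equal sums (SLC7A11, HMOX1 and GSR), 3 after quantile normalization (FTL, AKR1B10 and GSR) and 0 to 1 when 1 library was left out (SLC7A11 without A replicate 1). The share of all tested genes at this cutoff was taken on the deposited scale only (6.82% lower and 10.5% higher). It may move with the setting as well, so the range of counts cannot be read as particular to the members. With equal sums, genes with all G below all A libraries went from 9.57% to 3.31% of those tested. Negative changes among the members numbered 17 with equal sums and 19 after quantile normalization. The median was -0.013 with equal sums, -0.030 after quantile normalization, -0.076 with equal sums without mitochondrial genes and -0.15 to -0.10 when 1 library was left out.

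The members that turned positive with equal sums were GCLM (0.023), SRXN1 (0.0032), PRDX1 (0.021), TKT (0.021), ME1 (0.097), NQO1 (0.068), AKR1B1 (0.033), AKR1B10 (0.028), AKR1C2 (0.088), CBR3 (0.082), UGDH (0.063) and SQSTM1 (0.024). After quantile normalization they were TKT (0.0028), ME1 (0.0023), NQO1 (0.061), AKR1B1 (0.037), AKR1B10 (0.18), AKR1C2 (0.015), UGDH (0.0051), FTL (0.18), FTH1 (0.10) and SQSTM1 (0.050). With equal sums without mitochondrial genes they were ME1 (0.038), NQO1 (0.0056), AKR1C2 (0.027), CBR3 (0.026) and UGDH (0.0013), and with library weights CBR3 (0.037). When 1 library was left out, ME1 ranged from -0.049 to 0.034 (positive without A replicate 3 or G replicate 2), CBR3 from -0.073 to 0.049 (positive without A replicate 1 or G replicate 2) and UGDH from -0.12 to 0.016 (positive without G replicate 2). The causes were not tested.

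With the replicate number as a block, 9 members were lower at an unadjusted p under 0.05. The share of all tested genes at that cutoff was not taken under the block, so the count cannot be read as particular to the members. By adjusted p, 0 of all genes were called under the block, and so MAFF was not called either. Deviations of same-numbered libraries correlated at 0.073, 0.015 and 0.040 for replicates 1, 2 and 3, and those of other pairs at -0.056 to 0.016. Replicates 1 and 3 thus lay above the range of other pairs, though all values were near 0. Whether same-numbered libraries share more than a number was not tested. Calls among pathway genes outside the members numbered 1 as reported, 0 without a filter on low values, 0 with the replicate block, and 0 to 1 when 1 library was left out. Member transcripts called numbered 0 to 1 when 1 library was left out, the 1 being TXNRD1 ENST00000526950 without G replicate 3. All-gene calls moved from 14 to 1 without a filter, 6 after quantile normalization, 4 without an intensity trend, 0 with the block and 5 to 20 when 1 library was left out, with 10 under median-ratio factors. Without counts, the counting error behind low members such as SLC7A11 is unknown.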

Other observations

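For 7 of the 33 members the most abundant transcript had a log2 change of the other sign than the gene, though none of these transcripts was called by limma. AKR1C2 ENST00000460124, a retained-intron transcript, was at 67.9, 68.5 and 67.0 FPKM in A and 71.9, 79.6 and 74.1 FPKM in G, all G libraries above all A libraries (log2 change 0.15, limma adjusted p = 0.686), while the gene was level. For 3 members the main transcript was low or without an estimate in some libraries whose gene value lay near the others. KEAP1 ENST00000393623 was at 0.0001, 32.2 and 28.0 FPKM in A and 23.3, 26.7 and 19.5 FPKM in G, with no estimate in A replicate 1, where the gene was at 26.8 FPKM. EPHX1 ENST00000272167 was at 197, 214 and 30.5 FPKM in A and 163, 169 and 158 FPKM in G, low in A replicate 3 alone. UGDH ENST00000316423 was at 0.186, 73.5 and 0.262 FPKM in A and 68.8, 2.74 and 77.6 FPKM in G, nearly absent from 3 libraries of both groups. The other 3 were GCLC, GSTP1 and PRDX1, with log2 changes of -0.33, 0.037 and 0.08 for their main transcripts.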
